A study of Mus musculus with 12 samples.

Results

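The extracellular matrix of the ovary is cut by 2 families of secreted or membrane-anchored zinc proteinases, the matrix metalloproteinases (MMPs) and the ADAMTS proteinases (a disintegrin and metalloproteinase with thrombospondin motifs), and both are held in check by the tissue inhibitors of metalloproteinases (TIMPs). The genes described here were taken by symbol from the table of gene expression in whole mouse ovaries: every numbered Mmp, Adamts and Timp gene, except Mmp12 and Adamts1. There were 44 such genes among 24255 in the table, of which 22 were Mmp, 18 were Adamts and 4 were Timp genes.

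The study compared ovaries of wild-type mice (WT, 7 libraries) with ovaries of mice in which Mtor had been removed from oocytes by Gdf9-Cre (CKO, 5 libraries). All mice were C57BL/6, were 6 months old and had been primed with 5 IU of equine chorionic gonadotropin (eCG, also called PMSG) 46 h before collection. Polyadenylated RNA of the ovary was sequenced, and levels are FPKM, fragments scaled by the length of the gene's transcripts and by the depth of the library. Gdf9-Cre is active in oocytes, so the follicular, stromal, vascular and immune cells of the CKO ovary keep Mtor. No label ties a library to an animal, so every p-value here reflects only how these 12 libraries scatter. In whole tissue, fewer cells of a type and less RNA per cell cannot be told apart.

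MMPs are made as inactive precursors whose prodomain is removed by furin-like convertases, by plasmin or by another MMP, and they cut collagens, laminins and other matrix proteins. ADAMTS enzymes have narrower tasks: some trim procollagens, some cut the large proteoglycans versican and aggrecan, and some act on fibrillin microfibrils. TIMPs occupy the active site of the enzyme. In the ovary the system is known for the remodelling that goes with follicle growth, follicle rupture, atresia, and the building and loss of corpora lutea.

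Of the 22 Mmp genes, 9 lie in 1 cluster on chromosome 9 (mm10 7272514 to 7699585, a span of 427.1 kb): Mmp13, Mmp1b, Mmp3, Mmp1a, Mmp10, Mmp8, Mmp27, Mmp20 and Mmp7. The cluster holds the collagenases, both classical stromelysins and matrilysin, and none of the 9 passed the filter for testing, which asked for at least 1 FPKM in at least 5 of the 12 libraries. Promoters of such inducible MMPs are known for a TATA box with a binding site for the AP-1 transcription factor upstream of it. The last 100 bases before the RefSeq start site (GRCm38.p6) are shown for the 7 cluster genes that hold both motifs, with TGANTCA (AP-1) and TATAAA in capitals.
Mmp13, chr9:7272414-7272513, plus strand: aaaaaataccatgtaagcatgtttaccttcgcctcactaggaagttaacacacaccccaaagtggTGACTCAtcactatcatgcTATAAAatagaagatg
Mmp1b, chr9:7388027-7388126, minus strand: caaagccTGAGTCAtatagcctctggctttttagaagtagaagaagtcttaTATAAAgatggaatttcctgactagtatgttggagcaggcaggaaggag
Mmp3, chr9:7445722-7445821, plus strand: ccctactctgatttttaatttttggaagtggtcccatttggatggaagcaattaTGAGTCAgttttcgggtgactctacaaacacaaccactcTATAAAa
Mmp1a, chr9:7464041-7464140, plus strand: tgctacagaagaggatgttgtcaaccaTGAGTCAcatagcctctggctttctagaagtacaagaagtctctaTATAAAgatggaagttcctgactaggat
Mmp10, chr9:7502242-7502341, plus strand: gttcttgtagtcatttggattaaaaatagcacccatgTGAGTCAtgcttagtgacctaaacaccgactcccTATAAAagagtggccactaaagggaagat
Mmp20, chr9:7628131-7628230, plus strand: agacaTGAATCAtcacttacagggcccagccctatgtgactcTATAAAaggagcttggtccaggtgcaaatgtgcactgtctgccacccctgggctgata
Mmp7, chr9:7691990-7692089, plus strand: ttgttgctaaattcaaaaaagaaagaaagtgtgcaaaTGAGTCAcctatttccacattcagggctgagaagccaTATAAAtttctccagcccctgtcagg
The AP-1 letters were searched in the 250 bases before the start, on both strands, and were found in 7 of 9 cluster genes, in 0 of 21 other members with a promoter entry, and in 6.75% of 32851 mouse promoters of the same length. TATAAA was found in the same way in 7 of 9 cluster genes, in 1 of 21 other members and in 12.4% of all promoters. The GC box GGGCGG was found in 0 of 9 cluster genes, in 15 of 21 other members and in 32.7% of all promoters. GC content ran from 37.2 to 53.2% in the cluster promoters and from 53.6 to 79.2% in the others. Entries were at hand for 30 of the 44 genes. Mmp7 has another entry (53.2% GC) that holds neither the AP-1 letters nor TATAAA. The N of TGANTCA allows any base, and it is C or G in every printed match except that of Mmp20 (TGAATCA). A match describes letters and says nothing of the factor's binding in these ovaries.

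For contrast, the full 250 bases are shown for Adamts3 and Timp2, 2 genes that rose in CKO ovaries, with the 1 GC box of each in capitals (CCGCCC is the same motif on the other strand).
Adamts3, chr5:89883335-89883584, minus strand: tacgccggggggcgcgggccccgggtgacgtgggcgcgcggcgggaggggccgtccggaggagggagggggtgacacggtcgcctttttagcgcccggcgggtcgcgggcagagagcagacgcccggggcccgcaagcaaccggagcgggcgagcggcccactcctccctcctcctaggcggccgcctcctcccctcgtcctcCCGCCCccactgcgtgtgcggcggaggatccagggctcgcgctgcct
Timp2, chr11:118355412-118355661, minus strand: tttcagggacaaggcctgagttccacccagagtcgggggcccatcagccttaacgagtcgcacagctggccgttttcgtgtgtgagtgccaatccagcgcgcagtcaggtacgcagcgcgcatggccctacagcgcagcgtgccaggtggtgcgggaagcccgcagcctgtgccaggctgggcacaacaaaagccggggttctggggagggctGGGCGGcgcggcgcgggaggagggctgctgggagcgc
Both are shown as examples. The GENCODE M21 annotation starts Timp2 at 118355740, upstream of the RefSeq start used here, so the Timp2 bases lie inside that gene. The last bases printed for Mmp1b likewise fall inside its GENCODE span, which reaches 7388047. A GC box does not mark a gene as expressed here, since Adamts18, Adamts20, Mmp24 and Mmp25 hold one as well and were under the filter.

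The libraries were even in scale, with an upper quartile of 12.9 to 13.2 FPKM, and 14945 to 16083 genes were above 0 in each. Their relative depth, read from the steps between low FPKM values, varied 2.14-fold, and no pair was a duplicate (highest correlation 0.987). Of 37 listed markers of oocytes, granulosa, theca and luteal cells, 31 were above 0 in all libraries. Mtor itself was 4.70 ± 0.702 FPKM in WT (SD, n = 7) and 5.02 ± 0.499 in CKO (n = 5). All ovarian cells but the oocyte keep Mtor, so this level cannot check the labels. The library in 1 WT column could not be tied to a single sample by its name and is called the unnumbered WT library. It stands apart in the luteal markers, with a summed 316.5 FPKM against 2725 to 8098 in the other WT libraries. It was also the lowest WT library in the granulosa genes Cyp19a1 (1.26 FPKM, the others 28.8 to 88.9) and Inhba (39.4, 194 to 501). The same held for the theca genes Cyp17a1 (1.46, 41.2 to 267) and Lhcgr (45.9, 288 to 373). Of other granulosa genes, Amh was highest there (309, 35.1 to 126) and Foxl2 (250) lay within the range of the others. The unnumbered library held the highest WT value of 12 of the 26 tested members. CKO replicates 2 and 3 held oviduct transcripts, with Ovgp1 at 252.4 and 81.9 FPKM against 1.87 or less in the other 10 libraries.

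Per unit of length, 2 inhibitors stood above every proteinase gene. Timp2 and Timp3 were the most abundant of the 44 genes, at 144 and 129 FPKM averaged over all 12 libraries, followed by Mmp11 at 77.1, Timp1 at 64.7, Mmp14 at 62.9 and Mmp2 at 44.5. By mean, the order of Mmp11, Timp1 and Mmp14 was not the same in the 2 groups. Timp1 (42.6) was below Mmp14 (59.3) and Mmp11 (66.7) in WT, and above both in CKO (95.7, against 68.0 and 91.7). The CKO mean of Timp1 rests on high values in CKO replicates 1 and 3 (203 and 129). By CKO median, Timp1 (70.7) was below Mmp14 (71.3) and Mmp11 (90.9). Timp2, Timp3 and Timp1 made up 42.4, 38 and 19.1% of the summed TIMP level, and Timp4 made up 0.452%. Mmp11, Mmp14 and Mmp2 gave 32.1, 26.2 and 18.5% of the MMP sum, and Adamts2, Adamts10 and Adamts9 gave 32.8, 22.5 and 11% of the ADAMTS sum. An average of at least 10 FPKM was reached by 10 members, 17 were at 1 FPKM or more in every library, and 6 were listed at 0 in all 12.

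**Figure D1:**
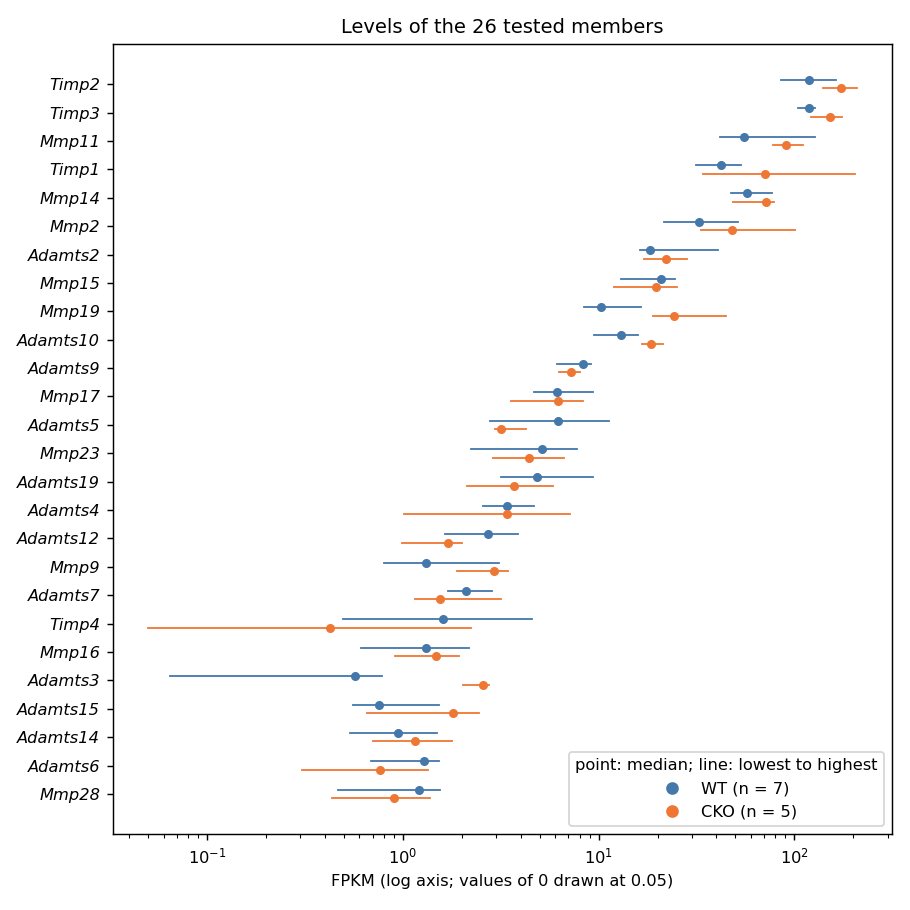
Level of each of the 26 tested members in FPKM on a log axis, with the median (point) and the lowest to highest library (line) of 7 WT libraries in blue and 5 CKO libraries in orange. Timp2 and Timp3 lead by median in both groups, and the WT and CKO lines of Mmp19, Adamts10 and Adamts3 do not overlap.

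Loss of Mtor from oocytes went with higher levels of 4 of the 26 tested members, Adamts3, Mmp19, Adamts10 and Timp2. No tested member was called lower, and 14 of the 26 had a log2 fold change above 0. Limma on log2(FPKM + 1), with Benjamini-Hochberg adjustment over 13168 genes at 0.05, called 4 members higher where 8.70% of all tested genes were higher, and 0 lower where 7.59% were lower. At an unadjusted p under 0.05, 10 members were higher and 2 lower, against 15.5 and 14.7% of all genes. In 3 members every CKO library was above every WT library, and in 0 every CKO library was below, where 4.09 and 3.65% of all genes did so. Adamts3, counted in these 3 and in the 4 called, passed the filter only through the CKO libraries. It could thus only be tested if it differed. The median log2 fold change was 0.07 over the 26 members (0.13 in Mmp, -0.07 in Adamts and 0.43 in Timp genes) and -0.01 over all genes. Without CKO replicates 2 and 3, the libraries with oviduct transcripts, 2 members were called higher, both among the 4. Without CKO replicates 1 and 5, the libraries highest in macrophage and blood markers, 5 were called higher, 3 of them among the 4. No share over all genes is set beside these counts, so they show only how the calls depended on the libraries.

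**Figure D2:**
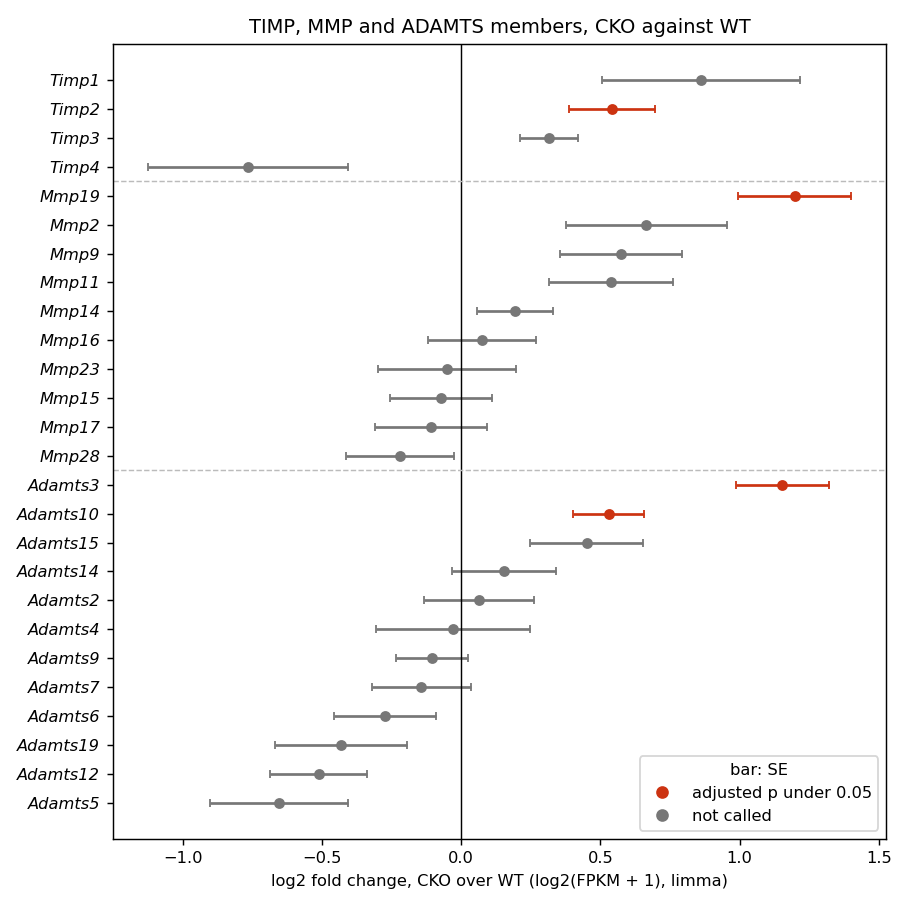
Log2 fold change of each tested member, CKO over WT, on the log2(FPKM + 1) scale, with its standard error, ordered within the TIMP, MMP and ADAMTS genes. Red marks an adjusted p under 0.05: Timp2 at 0.54, Mmp19 at 1.20, Adamts3 at 1.15 and Adamts10 at 0.53.

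Among the inhibitors, Timp2, which blocks MMPs and also joins MMP14 in activating pro-MMP2, rose. The gene lies on chromosome 11 (mm10 118301069 to 118355740, minus strand). Its level was 85.7 at the lowest, 119 at the median and 164 FPKM at the highest of the WT libraries, and 154, 200, 173, 209 and 141 in CKO replicates 1 to 5. CKO replicates 2, 3 and 4 were above all WT libraries, while CKO 1 and 5 lay below the unnumbered WT library, so the groups overlapped. The mean went from 121 ± 26.1 to 175 ± 29.1 FPKM, a log2 fold change of 0.54 (SE 0.15, limma adjusted p = 0.0270). The call was lost when WT replicate 2 or CKO replicate 2, 3 or 4 was left out (limma adjusted p = 0.0512 to 0.0696), and without CKO replicates 2 and 3 together it was 0.122.

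Timp3, the TIMP that stays bound to the matrix and also inhibits several ADAMTS and ADAM enzymes, was the steadiest of the abundant members in WT. It ran from 105 through a median of 118 to 128 FPKM in WT libraries, a coefficient of variation of 7.34%, and was 126, 151, 155, 176 and 121 in CKO replicates 1 to 5. All 5 CKO libraries were above the WT median and 3 were above every WT library. The log2 fold change was 0.32 (SE 0.10, limma adjusted p = 0.0530) and missed the threshold. It passed without CKO replicate 1 (limma adjusted p = 0.0419) or CKO replicate 5 (0.0316). Syn3, which encodes a synapsin, shares 1733 exonic bases with Timp3 on the opposite strand, but was at 1.10 FPKM or less in every library.

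Timp1, an inducible, secreted inhibitor, was uneven among CKO ovaries. It was 31.6 at the lowest, 42.1 at the median and 53.7 FPKM at the highest in WT, and 203, 41.8, 129, 34.2 and 70.7 in CKO replicates 1 to 5. CKO 1, 3 and 5 exceeded all WT libraries, and CKO 2 and 4 lay within the WT range, with a coefficient of variation of 73.8% in CKO against 20.03% in WT. The mean was 2.25 times that of WT, but the log2 fold change of 0.86 (SE 0.35) gave a limma adjusted p of 0.117. Without CKO replicate 1 it was 0.51 (limma adjusted p = 0.275), and without CKO replicate 4 it was 1.15 (0.0332).

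Timp4 was the rarest inhibitor. Its WT libraries ran from 0.494 to 4.56 FPKM, CKO replicates 1 and 2 were listed at 0, and the other CKO libraries were at 0.422, 2.24 and 1.57. The log2 fold change was -0.77 (SE 0.36, limma adjusted p = 0.169), and the groups overlapped.

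**Figure D3:**
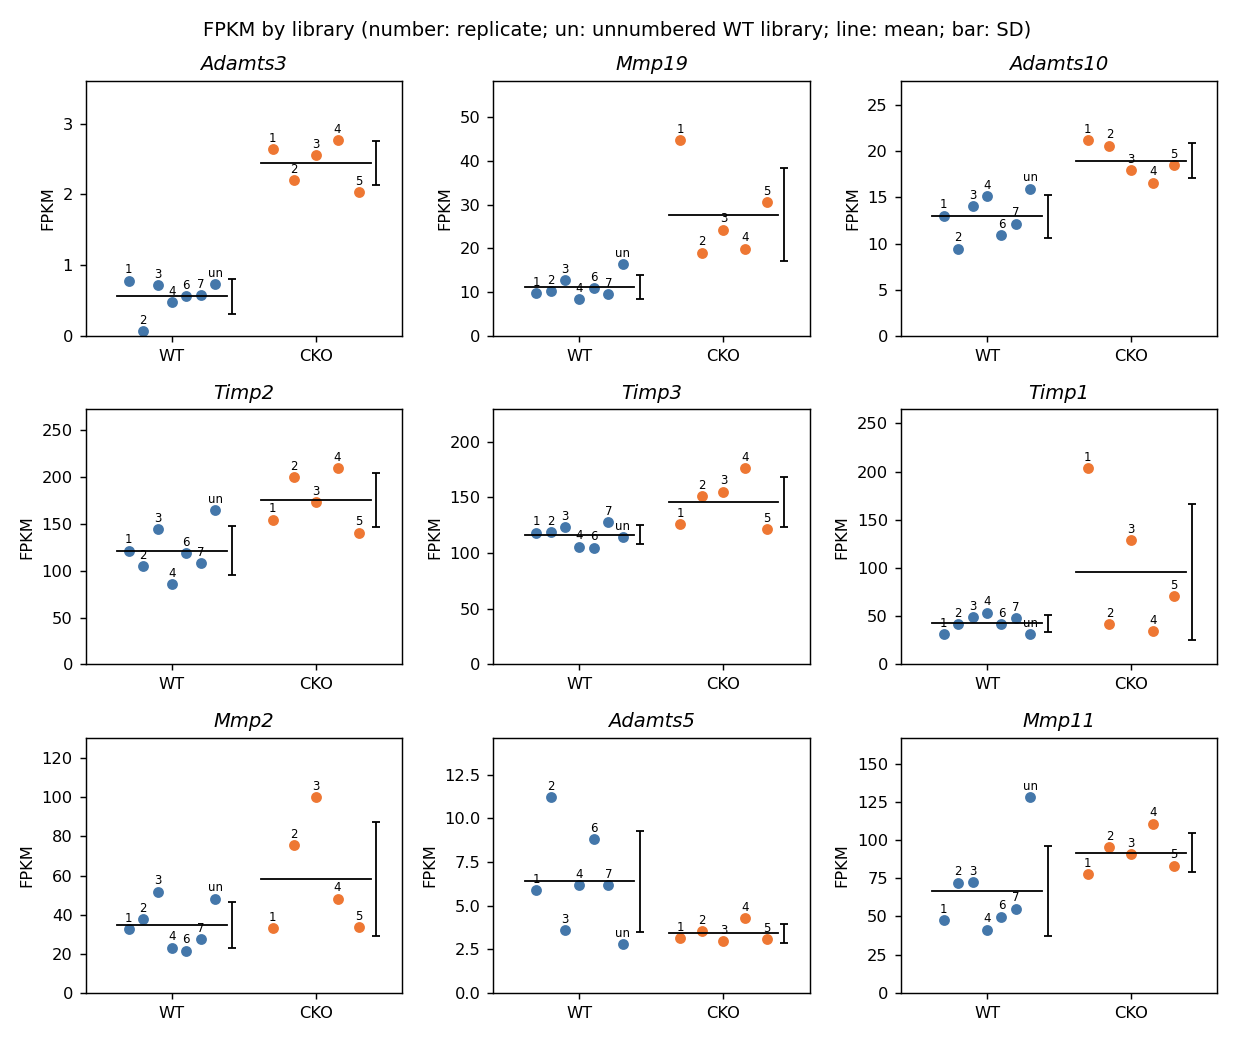
FPKM of 9 members in each library, WT in blue and CKO in orange, with replicate numbers (un, the unnumbered WT library), the mean as a line and the SD as a bar. Adamts3, Mmp19 and Adamts10 are separate between the groups, Timp1 is high in CKO 1 and 3, and Mmp2 is high in CKO 2 and 3.

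The summed TIMP level separated the groups. It was 247.8 at the lowest, 272.5 at the median and 317.7 FPKM at the highest in WT, and 484, 393, 457, 421 and 334 in CKO replicates 1 to 5, with no overlap. The MMP sum, at 162 to 282 in WT and 227 to 331 in CKO, overlapped, and so did the ADAMTS sum, at 60.1 to 91.2 in WT and 59.7 to 81.3 in CKO. The TIMP sum divided by the MMP sum ran from 1.12 to 1.54 in WT and from 1.28 to 1.87 in CKO, with medians of 1.43 and 1.42. With the ADAMTS sum added to the MMP sum, the ratio was 0.844 to 1.11 in WT and 1.42, 1.03, 1.15, 1.15 and 1.16 in CKO replicates 1 to 5, so 4 of the 5 CKO libraries were above every WT library. CKO replicate 1, with its high Timp1, had the highest value of both ratios. These sums were given no test, and 3 genes carry almost all of the TIMP sum.

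**Figure D4:**
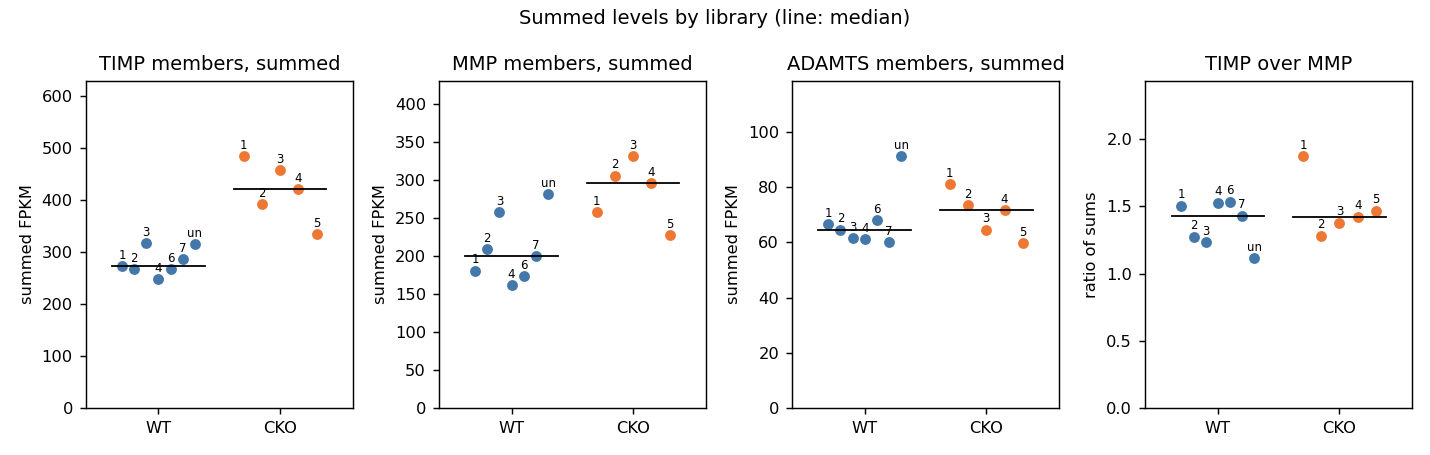
Summed FPKM of the TIMP, MMP and ADAMTS members and the ratio of the TIMP to the MMP sum in each library, with the group median as a line. All 5 CKO libraries are above all 7 WT libraries in the TIMP sum (334 to 484 against 248 to 318 FPKM), and the groups overlap in the other 3 panels.

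Among the MMPs, Mmp19, a secreted enzyme that cuts basement membrane proteins, was the member with the largest log2 fold change on the log2(FPKM + 1) scale. The gene lies on chromosome 10 (mm10 128790910 to 128800824, plus strand). Its WT libraries were 8.42 at the lowest, 10.2 at the median and 16.4 FPKM at the highest, and CKO replicates 1 to 5 were 44.8, 19.0, 24.3, 19.9 and 30.5. The unnumbered library was the highest of the WT, and CKO replicate 2, the lowest of the CKO, was still above it. The mean went from 11.2 ± 2.70 to 27.7 ± 10.6 FPKM, a log2 fold change of 1.20 (SE 0.20, limma adjusted p = 0.00154). Mmp19 was called in every setting tried, including all 12 fits that left out 1 library.

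Mmp19 was highest in CKO replicates 1 and 5, which were also the highest in macrophage and blood markers. Of 9 listed macrophage markers, all above 0 in every library, 8 were higher in CKO by limma. Their summed level was 357 to 1033 FPKM in WT and 1239 to 3899 in CKO, with 3588 in CKO 1 and 3899 in CKO 5. The 5 blood markers summed to 276 and 316 FPKM in CKO 1 and 5, and to at most 63.6 in the other CKO libraries. In WT they summed to 19.4 to 248. Of 4 tested, 0 were called, but levels moved between Hba-a1 and Hba-a2 from library to library, which limits these tests. Surface epithelium markers summed to 321 in CKO 1, against at most 134 in the other 11 libraries. Without these 2 libraries the log2 fold change of Mmp19 was 0.88 (limma adjusted p = 0.00969). Mast cell markers, at 0.616 to 14.2 FPKM summed in WT and 55.6 to 264 in CKO, and stromal markers, at 1200 to 1924 and 2908 to 3845, were also separate between the groups, as were Mmp19, Adamts3 and Adamts10, with 5 of 5 tested mast cell genes and 5 of 9 stromal genes called higher. The part of these cell types in the 4 genes that rose was not tested. Of the tested mast cell genes, Mcpt4 (at most 0.769 FPKM in WT) passed the filter only through the CKO libraries. Fcer1a and Cpa3, at most 1.47 and 1.56 FPKM in WT, also needed the CKO libraries to pass. The 5 of 5 was thus partly set by the filter. Tmem198b shares 789 exonic bases with Mmp19 on the opposite strand, and the use of strand in counting is not given in the sources used here. Tmem198b itself was 8.34 to 21.2 FPKM in WT and 12.1 to 21.2 in CKO (log2 fold change 0.25, limma adjusted p = 0.416).

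The gelatinases, which cut denatured collagen and type IV collagen, were not called. Mmp2 was 21.6 at the lowest, 32.7 at the median and 51.8 FPKM at the highest in WT, and 33.3, 75.5, 100.3, 48.3 and 33.8 in CKO replicates 1 to 5. Only CKO 2 and 3, the libraries with oviduct transcripts, were above all WT libraries. The log2 fold change was 0.66 (SE 0.29, limma adjusted p = 0.137). It was 0.19 without CKO replicates 2 and 3 (limma adjusted p = 0.679), and 1.09 without CKO replicates 1 and 5 (0.0302). The 4 oviduct markers summed to at most 1.66 FPKM in WT and to 1.92 to 261 in CKO, with Sntn, a gene of ciliated cells, listed at 0 in all WT and 4 CKO libraries. Their part in the level of Mmp2 was not tested.

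Mmp9, the other gelatinase, was far lower. It was 0.797 at the lowest, 1.31 at the median and 3.08 FPKM at the highest in WT and 2.93, 2.12, 3.03, 3.45 and 1.90 in CKO replicates 1 to 5. All CKO libraries were above the WT median, but the unnumbered WT library was higher than 4 of them. The log2 fold change was 0.57 (SE 0.22, limma adjusted p = 0.0896), and without the unnumbered WT library it was 0.70 (0.0239).

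Mmp11, or stromelysin 3, which unlike most secreted MMPs is activated inside the cell by furin, had the highest mean of the MMPs over all libraries, although by WT median it was slightly below Mmp14 (55.2 against 57.3 FPKM). It was 41.5 at the lowest, 55.2 at the median and 128 FPKM at the highest in WT, and 77.9, 95.6, 90.9, 111 and 83.3 in CKO replicates 1 to 5. All 5 CKO libraries were above 6 of the 7 WT libraries, and the unnumbered WT library was above all CKO libraries. With all libraries the log2 fold change was 0.54 (SE 0.22, limma adjusted p = 0.120). Without the unnumbered WT library it was 0.71 (limma adjusted p = 0.00625). Chchd10, a mitochondrial protein gene, shares 155 exonic bases with Mmp11 on the opposite strand and ran from 5.33 to 17.5 FPKM in WT and 12.3 to 31.0 in CKO.

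None of the 4 tested membrane-type MMPs was called. Mmp14, the main activator of pro-MMP2 at the cell surface, was 59.3 ± 10.1 FPKM in WT and 68.0 ± 11.6 in CKO (log2 fold change 0.19, limma adjusted p = 0.380). Mmp15 and Mmp16, which like Mmp14 span the membrane, were 20.5 ± 3.7 and 1.34 ± 0.524 in WT and 19.8 ± 5.55 and 1.44 ± 0.405 in CKO. Mmp17, held by a lipid anchor, was 6.76 ± 1.95 and 6.18 ± 1.71. The adjusted p of these 3 was between 0.763 and 0.841. Mmp23 was 5.00 ± 1.99 FPKM in WT and 4.62 ± 1.36 in CKO, and Mmp28 (epilysin) 1.14 ± 0.364 and 0.850 ± 0.394, with adjusted p of 0.917 and 0.493. The levels of these 6 genes overlapped between the groups.

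Among the ADAMTS genes, Adamts3 rose the most. It belongs to the procollagen N-proteinases, which trim the amino end of fibrillar procollagens, and it also processes the lymphatic growth factor VEGF-C. The gene lies on chromosome 5 (mm10 89677087 to 89883334, minus strand), just downstream of the promoter printed above. Its WT libraries were 0.0650 at the lowest, 0.572 at the median and 0.781 FPKM at the highest, and CKO replicates 1 to 5 were 2.64, 2.2, 2.55, 2.77 and 2.03. Every CKO library was above the highest WT library, and WT replicate 2 lay far below the other WT libraries. The mean went from 0.559 ± 0.243 to 2.44 ± 0.311 FPKM, a ratio of 4.36, and the log2 fold change on the log2(FPKM + 1) scale was 1.15 (SE 0.17, limma adjusted p = 0.000625). From the steps between FPKM values these levels rest on about 1 to 16 fragments in WT and 32 to 72 in CKO libraries. Adamts3 passed the filter only through the CKO libraries, so it could only be tested if it differed. It was called in every setting that tested it, but a filter on the mean over all libraries was likewise met only through the CKO libraries.

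Its close relatives did not pass the test. Adamts2, the main procollagen I N-proteinase, was 22.4 ± 8.48 FPKM in WT and 22.7 ± 4.07 in CKO (log2 fold change 0.06, limma adjusted p = 0.866), with the unnumbered WT library at 40.5. Adamts14 was 0.958 ± 0.344 and 1.18 ± 0.437 FPKM (log2 fold change 0.15, limma adjusted p = 0.635). Adamts2 was thus the most abundant of the 3 N-proteinases in both genotypes, also beside the raised Adamts3.

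Adamts10, which binds fibrillin and promotes microfibril assembly, rose in CKO ovaries. The gene lies on chromosome 17 (mm10 33524204 to 33553782, plus strand). Its WT libraries were 9.46 at the lowest, 13 at the median and 16 FPKM at the highest, and CKO replicates 1 to 5 were 21.2, 20.6, 17.9, 16.6 and 18.5. The groups did not overlap, although CKO 4 was close to the unnumbered WT library. The mean went from 13 ± 2.31 to 19 ± 1.92 FPKM, a log2 fold change of 0.53 (SE 0.13, limma adjusted p = 0.0120). The call held in all 12 fits that left out 1 library, and it was lost when 2 CKO libraries were left out, with limma adjusted p = 0.0720 without CKO 1 and 5 and 0.0533 without CKO 2 and 3. Adamts6, its closest relative, was 1.18 ± 0.303 FPKM in WT and 0.820 ± 0.380 in CKO (log2 fold change -0.28, limma adjusted p = 0.342).

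No proteoglycan-cleaving ADAMTS was called. Adamts5, a main aggrecanase that also cuts versican, was 2.78 at the lowest, 6.18 at the median and 11.2 FPKM at the highest in WT, and 3.16, 3.55, 2.95, 4.28 and 3.09 in CKO replicates 1 to 5. All CKO libraries were below the WT median but above the unnumbered WT library, the lowest of all. The log2 fold change was -0.65 (SE 0.25, limma adjusted p = 0.0894), and without the unnumbered WT library it was -0.80 (0.0210). Versican itself (Vcan), its substrate, is given below with the substrates.

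The other tested enzymes of this class overlapped between the groups. Adamts4 was 3.52 ± 0.734 FPKM in WT and 3.87 ± 2.38 in CKO, where it ran from 1.01 to 7.13 (log2 fold change -0.03, limma adjusted p = 0.955). Adamts9 was 7.84 ± 1.26 and 7.18 ± 0.839 (log2 fold change -0.10, limma adjusted p = 0.634). Adamts15 was 0.920 ± 0.354 in WT and 1.66 ± 0.651 in CKO, with 4 of 5 CKO libraries above every WT library (log2 fold change 0.45, limma adjusted p = 0.152). Without CKO replicate 5, the library at 0.656, its log2 fold change was 0.61 (0.0488).

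Adamts12 and Adamts7, which cut cartilage oligomeric matrix protein, were both lower on average in CKO, and neither was called. Adamts12 was 1.64 at the lowest, 2.72 at the median and 3.86 FPKM at the highest in WT, and 1.80, 2.02, 0.987, 1.69 and 1.16 in CKO replicates 1 to 5. All CKO libraries were below the WT median and 2 were below every WT library. The log2 fold change was -0.51 (SE 0.18, limma adjusted p = 0.0599), and it was -0.59 without WT replicate 4 (0.0391) and -0.58 without CKO replicate 2 (0.0487). Adamts7 was 2.10 ± 0.387 FPKM in WT and 1.87 ± 0.794 in CKO (log2 fold change -0.14, limma adjusted p = 0.638). Whether the 2 genes differ in their response was not tested. Adamts19, whose substrate is not established, was 5.21 ± 2.0 and 3.62 ± 1.53 FPKM (log2 fold change -0.43, limma adjusted p = 0.239), with 9.38 in the unnumbered WT library.

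In all, 18 members did not reach 1 FPKM in 5 libraries. The 6 listed at 0 in all 12 libraries were Mmp1a, Mmp7, Mmp10, Mmp20 (enamelysin, an enzyme of tooth enamel), Mmp21 and Adamts13, the liver-made enzyme that cuts von Willebrand factor. From the chromosome 9 cluster, Mmp13, the main interstitial collagenase of rodents, was highest, at 0 to 1.15 FPKM in WT and 0.571 to 2.23 in CKO. Mmp8, the neutrophil collagenase, was 0 to 0.264 and 0 to 0.847. Of the 6 neutrophil markers in the table, Mpo was listed at 0 in every library, Elane was above 0 in 1, and S100a9 (1.31 to 36.9 FPKM) and Csf3r (0.527 to 3.69) were above 0 in all 12. The list summed to 2.21 to 19.4 FPKM in WT and 4.30 to 50.3 in CKO, and its part in the level of Mmp8 was not tested. Mmp3 was listed at 0 in all WT libraries and reached 0.854 in CKO replicate 1, Mmp27 was above 0 only in CKO replicate 4 (0.309), and Mmp1b was at most 0.540.

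Outside the cluster, Mmp24 and Mmp25, both membrane-type, were at most 0.428 and 1.18 FPKM. Adamts8 was 0 to 0.223 in WT and 0.130 to 0.476 in CKO, and Adamts16, Adamts18 and Adamts20 were at most 0.696, 0.0955 and 0.393. Adamts17, which like Adamts10 is tied to fibrillin, was the 1 gene of the 18 whose groups did not overlap. It was 0.327 at the lowest, 0.411 at the median and 0.788 FPKM at the highest in WT, and 0.139, 0.190, 0, 0.152 and 0 in CKO replicates 1 to 5. Every CKO library was thus below every WT library. The share of all genes under the filter that do so was not counted. These values stand for about 5 to 13 fragments in WT and 0 to 3 in CKO libraries, so they are close to the limit of detection. With no filter on low values the log2 fold change of Adamts17 was -0.43 (SE 0.09, limma adjusted p = 0.00838). It was the only member lower in that setting, where 935 of 18254 genes were lower.

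In the authors' deposited table, which compares the groups with Cuffdiff, 6 members were higher at a q under 0.05 (Adamts10, Mmp11, Mmp19, Mmp2, Timp1 and Timp2) and 1 was lower (Adamts5). The table's background among the 13168 genes was 8.14% higher and 6.70% lower. Adamts10, Mmp19 and Timp2 were called by both methods. In the authors' deposited table Adamts3 has a log2 fold change of 2.12 with a p of exactly 1, a value that 29 of the 44 members carry.

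The genes around these families were read from 6 lists. Of 6 tested activators and regulators, 2 were called higher and 0 lower. Pcsk6, a furin-like convertase that acts at the cell surface and in the matrix, went from 11.3 ± 2.61 to 30.4 ± 9.0 FPKM (log2 fold change 1.34, limma adjusted p = 0.000548). Lrp1, the scavenger receptor that takes up proteinases with their inhibitors, went from 15.1 ± 3.52 to 23.9 ± 3.71 (0.64, 0.010). Furin, Pcsk5, Bsg and Reck did not pass the test. Of 5 tested plasminogen activator genes, 0 were called higher and 1 lower. Serpine2, the protease nexin that blocks plasminogen activators and thrombin, went from 258 ± 62.6 to 80.1 ± 32.7 FPKM (-1.73, 0.000400). Plaur, the urokinase receptor, followed with 0.76 (0.182).

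Of 8 tested matrix substrates, 2 were called higher and 1 lower. Vcan (versican), the proteoglycan that is cut when the cumulus expands, went from 28.7 ± 13.5 to 9.13 ± 4.25 FPKM (log2 fold change -1.57, limma adjusted p = 0.00231). Acan (aggrecan) and Eln (elastin) rose by 0.63 and 0.67 (limma adjusted p = 0.0401 and 0.0442). Of 9 tested ADAM genes, the membrane-bound cousins of the ADAMTS, 3 were called higher and 1 lower. Adam8, found on leukocytes, went from 1.26 ± 0.441 to 5.47 ± 3.6 FPKM (1.37, 0.00566) and was highest in CKO replicates 1 and 5, the libraries highest in macrophage markers. Adam17, the tumour necrosis factor convertase, fell from 29.0 ± 1.59 to 22.6 ± 3.37 (-0.36, 0.0222). Adam33 and Adam23 were the others called higher (0.78 and 0.55, limma adjusted p = 0.0352 and 0.0404).

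Of 4 tested ADAMTS-like genes none was called, with Adamtsl1 nearest (0.47, limma adjusted p = 0.143) and Thsd4 next at 0.08 (0.826), and of 2 tested astacin genes, Bmp1 and Pcolce, neither was (0.20 and 0.09, adjusted p = 0.233 and 0.798). The median log2 fold change was 0.14 for activators, 0.32 for the plasminogen list, -0.31 for substrates, 0.32 for ADAM genes, 0.09 for ADAMTS-like and 0.14 for astacin genes, against -0.01 over all genes.

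Granulosa cell markers fell in the same libraries, 12 of 12 listed genes, none at 0 in any library, from a summed 3911 to 7046 FPKM in WT to 1348 to 2580 in CKO. Serpine2 and Vcan fell beside them, and the part of the granulosa share in these 2 results was not tested. Oocyte markers were called lower in 6 of 9 tested genes, with a summed 68.1 to 230 FPKM in WT and 12.6 to 66.0 in CKO. Neutrophil markers were called in 0 of 3 tested and blood markers in 0 of 4. Hba-a1 and Hba-a2 were 0.0122 and 90.9 FPKM in WT replicate 1, but 20.1 and 0.0629 in WT replicate 4. With values that move between genes in this way, a test of each globin alone says little of blood content.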

How the data were processed

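Whole-ovary poly(A) RNA was sequenced as 7 WT and 5 CKO paired-end libraries. Per the labels and the submitters' processing notes, the authors aligned reads to mm10 with TopHat2 2.0.13 and computed FPKM with Cufflinks 2.2.1. The deposited table also holds the authors' log2 fold changes, p-values and q-values from Cuffdiff, whose log2 fold changes were CKO over WT within 0.01 in 99.9% of 13045 genes. Which gene annotation was counted, and whether strand was used, is not given in the sources used here.

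Here FPKM were tested with limma 3.58.1 (trend, R 4.3.3) as log2(FPKM + 1), a scale that understates changes of low genes, on 13168 genes with at least 1 FPKM in at least 5 of 12 libraries. A pair of bare numbers in brackets after a gene is its log2 fold change and limma adjusted p. FPKM are not counts, and the absolute depth is unknown. Fragments of 2 low genes were read from the steps between values (relative depths from 702 genes). Every tested member is named, and those called, and the next 6 by p, are given by library. Of each related list the called genes are counted and the 2 smallest p named. Members and lists were chosen with earlier results of these data known. Positions are from GENCODE M21 and promoters from RefSeq. The script was tested on simulated data. Pseudocounts, filters, scalings, sample weights, a Wilcoxon test, left-out libraries and a replicate block were tried as alternatives.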

Additional observations from a re-analysis of the deposited data

Results flagged for a closer look

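In the 26 tested members, the highest or lowest library of each group was compared with the rest of its group by Dixon's ratio, in 52 groups in all. It stood apart in 6 groups, all of them WT. Chance gives about 1 in 20 for independent groups of normal values. The FPKM were not put on a log scale here and the same 12 libraries enter every gene, so the 6 cannot be read against that rate. The unnumbered WT library was the highest for Adamts19 (9.38 FPKM, the next WT library at 5.55), Adamts2 (40.5, next 23.4) and Mmp11 (128, next 72.5), and the lowest for Mmp15 (13, next 19.7). WT replicate 2 was the lowest for Adamts3 (0.0650 FPKM, next 0.479), and WT replicate 3 was the highest for Adamts7 (2.87, next 2.19).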

How the results depend on the processing

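Of the 4 members called higher, Adamts3 and Mmp19 kept their call in every setting that tested them. The number called higher was 3 to 6 when 1 library was left out, 2 when a log2 fold change of at least 1 was asked for, and 2 without CKO replicates 2 and 3 (added once the values had been seen). The number lower was 0 to 1 when 1 library was left out, 1 with no filter (Adamts17) and 1 with quantile normalization (Adamts12). Over all genes, 893 to 1200 were higher and 737 to 1106 lower when 1 library was left out. The exact Wilcoxon test called 749 higher, a log2 fold change of at least 1 left 378 higher and 313 lower, and 702 were higher without CKO replicates 1 and 5 (added likewise, chosen after seeing the data). Timp2 was also lost with quantile normalization (limma adjusted p = 0.0894) and the exact Wilcoxon test (0.0947). Sample weights called Mmp11 and Timp3 (0.0362 and 0.0466).

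Replicate numbers 1 to 4 occur in both groups. Deviations of same-numbered libraries were hardly correlated (-0.03, 0.09, 0.04 and -0.07, own number best in 2 of 4). With 4 numbers this check cannot exclude a pairing. With the replicate block 3 members were higher, 2 of them among the 4 above, and 756 and 622 genes were higher and lower. The block lost Adamts10 (limma adjusted p = 0.102) and Timp2 (0.0568) and gained Mmp2 (0.0461). On the same libraries without the block, added after seeing the data, 4 members were higher, Adamts10 was at 0.0547 and Mmp11 at 0.0407.

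Only members that were not called changed sign. Adamts4 was 0.011 with sample weights, 0.086 with the block and on the same libraries without it, 0.44 without CKO replicates 2 and 3, and -0.25 to 0.25 with 1 library left out. Without CKO replicates 2 and 3, Adamts14 was -0.028, Mmp16 -0.036 and Mmp23 0.079. Without CKO replicates 1 and 5, Mmp15 was 0.19 and Mmp17 0.080. With 1 library left out, Adamts2 ran from -0.017 to 0.21, Mmp15 from -0.17 to 0.087, Mmp16 from -0.011 to 0.16, Mmp17 from -0.21 to 0.043 and Mmp23 from -0.19 to 0.073. Adamts3 could not be tested under a mean of at least 5 FPKM. The cause of these changes was not tested. Fragments behind a value were read only for Adamts3 and Adamts17. The absolute depth is unknown, so no limit of detection is given for the other members under the filter.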
